A study of Mus musculus with 37 samples.

Results

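The cortex of R6/2 mice that carried one functional copy of Hdac4 (Dble::R6/2, n = 10) was compared with the cortex of R6/2 mice with both copies (R6/2, n = 9), 19 of the 37 arrays of the series. The R6/2 line expresses the first exon of mutant human huntingtin as a transgene and is a model of Huntington's disease. The animals were 9 weeks old, of both sexes by their labels (5 male and 4 female R6/2, 5 male and 5 female Dble::R6/2), on a mixed CBA and C57BL/6 background, and total cortical RNA was measured on Affymetrix mouse genome-wide expression arrays. The other 18 arrays, 9 wild type (WT) and 9 heterozygous for the Hdac4 null allele without the transgene (Hdac4HET), entered the same fit and gave the Hdac4 effect in the absence of R6/2. The null allele was constitutive, so it was present in all cells from conception, and it was made on a 129S background before being backcrossed, so animals that carried it could also carry 129S DNA next to Hdac4. Homozygous loss is lethal early in life, so a partial reduction was studied. In whole cortex, fewer cells of a type and less RNA per cell cannot be told apart.

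HDAC4 is a class IIa histone deacetylase, a protein with little enzymatic activity of its own that moves between cytoplasm and nucleus. In the nucleus it binds MEF2 transcription factors and the NCoR and SMRT corepressors and holds down MEF2 target genes, and phosphorylation by calcium- and calmodulin-dependent kinases sends it back to the cytoplasm. In neurons most HDAC4 protein is cytoplasmic.

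A level is the deposited log2 value of a probe set, a change is Dble::R6/2 minus R6/2 in level, and a called probe set had an adjusted p under 0.05 (limma, Benjamini-Hochberg over all 45037 probe sets) and a change above 1.3-fold. "At any size" drops the fold requirement. Of all probe sets, 0.269% were called, 10 higher and 111 lower. The groups did not overlap for 23 probe sets (0.0511%), 9 of them called. With 1 probe set for each of 18193 genes, the brightest, 0.0879% were called. Those 16 genes were Pam, Enpp5, Abi3bp and Rian among the higher, and Hdac4, B3galt1, Zeb2, Prox1, Gprin3, Ampd2, Klf7, Lrp1b, Malat1, H2-Ob, Wdr53 and Slc7a11 among the lower. Array medians lay between 6.16 and 6.21, and arrays of 1 genotype correlated at 0.994 to 0.998. In all, 3 Dble::R6/2 arrays stood apart from their labels or tissue. In Dble::R6/2 replicates 1 and 9 the sex-linked genes went against the labelled sex, and replicate 10 had a mean over 28 olfactory bulb markers (7.66) above every WT array, against 6.92 to 7.21 in R6/2. Without the 6 such sex-mismatch arrays of the series 24 probe sets were called, and without its 7 such bulb-marker arrays 27 were called. In the first of these fits 22 of the 24 calls, and in the second all 27, were also among the 121.

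Promoter windows of 3 genes whose levels separated the groups without overlap are shown first, because they differ in kind. Each runs from 250 bases before to 50 bases after a transcription start in RefSeq (build GRCm38.p6), written 5′ to 3′ with CG dinucleotides in capitals. Hdac4 is the targeted gene, Pam lies on the same chromosome and Prm1 is a sperm gene on another one.
Hdac4, chr1:92180292-92180591, minus strand: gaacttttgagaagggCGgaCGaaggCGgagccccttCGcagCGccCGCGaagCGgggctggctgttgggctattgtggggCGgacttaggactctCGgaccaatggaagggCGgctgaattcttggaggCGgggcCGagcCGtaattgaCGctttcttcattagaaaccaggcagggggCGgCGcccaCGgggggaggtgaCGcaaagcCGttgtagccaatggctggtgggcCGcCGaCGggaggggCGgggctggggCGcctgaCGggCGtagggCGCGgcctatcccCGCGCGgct
Pam, chr1:98095597-98095896, minus strand: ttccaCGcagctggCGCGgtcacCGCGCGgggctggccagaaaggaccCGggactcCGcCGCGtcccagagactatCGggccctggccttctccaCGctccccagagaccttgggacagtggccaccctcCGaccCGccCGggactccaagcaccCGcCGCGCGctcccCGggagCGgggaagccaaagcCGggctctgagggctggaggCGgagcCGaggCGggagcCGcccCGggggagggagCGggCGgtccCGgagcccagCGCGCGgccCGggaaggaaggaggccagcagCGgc
Prm1, chr16:10796774-10797073, minus strand: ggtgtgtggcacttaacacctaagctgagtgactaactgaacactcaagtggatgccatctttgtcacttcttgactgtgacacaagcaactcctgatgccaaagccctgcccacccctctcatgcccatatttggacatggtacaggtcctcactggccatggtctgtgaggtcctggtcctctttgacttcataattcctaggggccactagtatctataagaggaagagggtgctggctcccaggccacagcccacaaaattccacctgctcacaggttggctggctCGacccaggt
The Hdac4 window held 32 CG dinucleotides and the Pam window 35, against a median of 18 over the 14452 measured genes with a window, while the Prm1 window held 1. None of the 3 held a MEF2 box.

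Hdac4 mRNA was lower in every Dble::R6/2 array than in any R6/2 array. The brightest Hdac4 probe set ranged from 8.31 to 8.55 in R6/2 (median 8.43) and from 7.70 to 7.98 in Dble::R6/2 (median 7.77). The change was -0.63 ± 0.04 (SE, n = 9 and 10, adjusted p = 4.37e-14, limma), which left 64.5% of the R6/2 level (95% interval of the change, -0.72 to -0.55). The second probe set, at 8.15 to 8.44 in R6/2 and 7.52 to 7.70 in Dble::R6/2, also separated the groups without overlap and changed by -0.69 ± 0.04 (adjusted p = 1.58e-14, limma). The dimmest one overlapped between the groups and changed by only -0.23 ± 0.05 (adjusted p = 0.0225, limma). The reduction was of similar size by labelled sex, -0.67 in males and -0.60 in females for the brightest probe set.

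**Figure D1:**
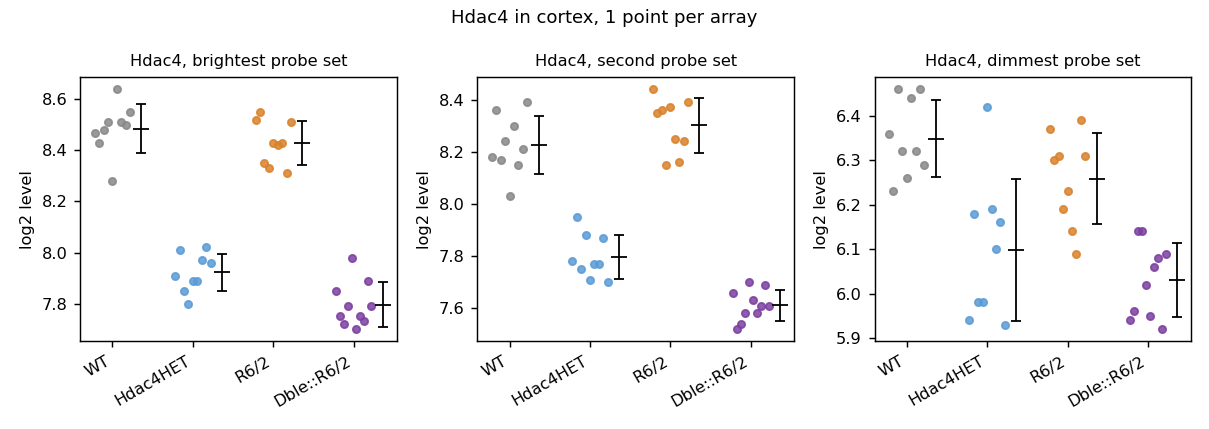
Log2 level of the 3 Hdac4 probe sets (vertical axes) in each array of the 4 genotypes (horizontal axes), with the mean and SD as bars beside the points. For the brightest and second probe sets, every R6/2 array lies above every Dble::R6/2 array.

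Without the transgene the brightest probe set differed by -0.56 ± 0.04 between Hdac4HET and WT (adjusted p = 7.73e-12, limma), and the 2 Hdac4 effects did not differ detectably there (adjusted p = 0.527). The second probe set fell further in the presence of R6/2 (-0.69) than in its absence (-0.43), with an adjusted p of 0.0359 for the difference (limma). That p was 0.224 without the bulb-marker arrays and 0.0602 without the sex-mismatch arrays.

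The other class IIa deacetylases were measured by their brightest probe sets at changes of 0.08 (Hdac5, adjusted p = 0.274), 0.00 (Hdac7, adjusted p = 0.992) and -0.07 (Hdac9, adjusted p = 0.592), all by limma. Endogenous Htt, the mouse huntingtin gene and, like Bdnf below, chosen after its values were seen, changed by 0.04 ± 0.03 (adjusted p = 0.526, limma). Across 7 lists around HDAC4, which held the other deacetylases, the kinases and adaptor proteins that control its location, the corepressor subunits, its transcription factor partners, MEF2 targets and muscle contraction genes, 106 genes of 112 were measured. None passed at any size in limma or in the methods' t-test, while 10 were higher (9.43%) and 4 lower (3.77%) at an unadjusted p under 0.05 in limma, near the 11.4% and 4.77% of all genes, and the median change was 0.017 against 0.022 over all genes. Mef2c, the most abundant family member of cortical neurons, changed by -0.26 ± 0.08 (adjusted p = 0.082, limma) and Mef2d by 0.04 ± 0.03 (adjusted p = 0.444, limma). Their ranges overlapped between the groups.

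The promoter windows of the genes that changed were searched for the MEF2 box and the SRF CArG box (by their consensus, both strands) and for the cyclic AMP response element TGACGTCA. The MEF2 box was found in 5 of the 240 genes with a window that were higher at any size (2.08%), in 2 of the 64 lower at any size (3.12%) and in 2.51% of all measured genes. The CArG box was found in 6 of the 240 higher genes (2.5%), none of the 64 lower ones and 1.58% of all. The response element was found in 11 of the 240 higher genes (4.58%), none of the 64 lower ones and 2.92% of all. A match describes letters in these windows only. Malat1, a lower gene discussed further on, was one of those with a MEF2 box, shown in capitals and beginning at position -119 from the start of transcription.
Malat1, chr19:5802623-5802922, minus strand: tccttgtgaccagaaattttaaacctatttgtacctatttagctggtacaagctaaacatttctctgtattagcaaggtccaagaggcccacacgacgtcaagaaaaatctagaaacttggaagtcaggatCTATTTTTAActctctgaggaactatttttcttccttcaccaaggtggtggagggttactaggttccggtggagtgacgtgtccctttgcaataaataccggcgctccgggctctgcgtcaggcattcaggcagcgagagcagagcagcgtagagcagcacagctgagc

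A few genes close to Hdac4 on chromosome 1 changed in the same direction in both genetic settings. Within 10 Mb, 134 genes were measured by their brightest probe set, and 6 of them, Hdac4 included, changed at any size here, when 1.53% of all genes were higher and 0.429% lower. Of these 6, 4 (Hdac4 itself, Kif1a, Stk25 and Pam) also changed the same way between Hdac4HET and WT, against 2 of the 350 changed genes elsewhere in the genome. Klhl30 (0.90), Irs1 (0.16) and Gin1 (0.23) changed at any size only between Hdac4HET and WT, and by 0.09, 0.05 and 0.16 here. These 2 comparisons share no arrays. The linked genes and Hdac4 share a chromosome segment, so an effect of the allele and one of neighbouring 129S sequence, including on probe binding, cannot be told apart.

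Pam encodes peptidylglycine alpha-amidating monooxygenase, which amidates the ends of neuropeptides. Its level ranged from 9.46 to 9.83 in R6/2 (median 9.67) and from 10.25 to 10.55 in Dble::R6/2 (median 10.37), with no overlap. It was 1.66-fold higher in Dble::R6/2 (change 0.73 ± 0.04 SE, adjusted p = 2.88e-15, limma), the lowest p of any gene by its brightest probe set. In Hdac4HET it was higher than in WT by 0.48 ± 0.04 (adjusted p = 2.67e-09, limma), and the difference of the 2 effects had an adjusted p of 0.04, which was 0.438 and 0.146 without the bulb-marker and sex-mismatch arrays.

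Stk25, a kinase of the Golgi and of neuronal polarity, was also separated without overlap, at 11.28 to 11.41 in R6/2 and 11.03 to 11.20 in Dble::R6/2. Its change was small but precise, -0.25 ± 0.02 (adjusted p = 1.29e-08, limma), beside -0.31 between Hdac4HET and WT. Kif1a, the motor that carries synaptic vesicle precursors along axons, ranged from 9.36 to 9.68 in R6/2 and from 9.18 to 9.44 in Dble::R6/2 and fell by 0.21 (adjusted p = 0.00476, limma), beside -0.29 without the transgene. The groups overlapped for Kif1a. Bok, a BCL-2 family member, rose by 0.29 ± 0.07 (adjusted p = 0.0318, limma) and by 0.27 without the transgene (adjusted p = 0.059). Ramp1, a subunit of the receptor for calcitonin gene-related peptide, rose by 0.24 ± 0.04 (adjusted p = 0.00194, limma). It differed by 0.11 without the transgene (adjusted p = 0.185) and by -0.45 between R6/2 and WT. Stk25, Kif1a, Bok and Ramp1 did not reach 1.3-fold and were chosen after their values were seen.

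**Figure D2:**
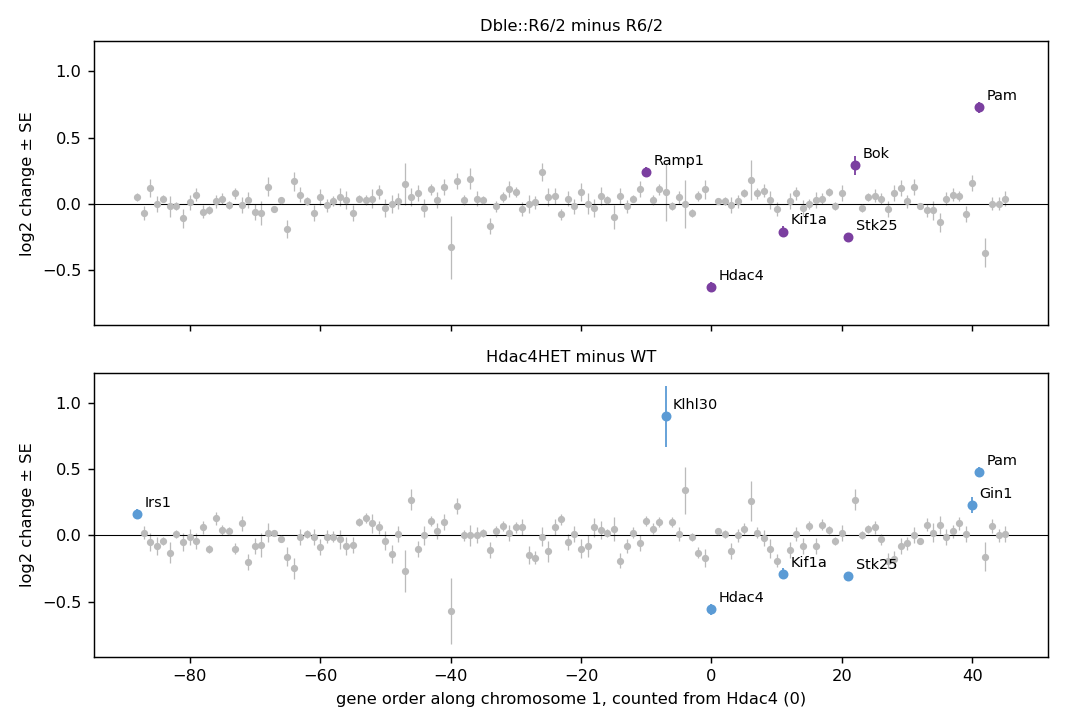
Log2 change with its SE (vertical axes) of the 134 genes measured within 10 Mb of Hdac4, in order along chromosome 1 (horizontal axis), for Dble::R6/2 minus R6/2 (upper panel) and Hdac4HET minus WT (lower panel). Named genes have an adjusted p under 0.05, and Hdac4, Stk25, Kif1a and Pam are named in both panels.

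Prm1, which encodes the sperm chromatin protein protamine 1, lies on chromosome 16. Of its 3 probe sets, 2 were called, and both separated the groups without overlap. The second by brightness ranged from 2.68 to 3.05 in R6/2 (median 2.81) and from 4.47 to 4.93 in Dble::R6/2 (median 4.64). The change was 1.83 ± 0.09 (adjusted p = 7.5e-18, limma), and the third probe set changed by 1.62 ± 0.08 (adjusted p = 7.5e-18, limma). The R6/2 levels were under 3.22, the level below which 5% of probe sets had their mean, so these changes understate the fold. Hdac4HET and WT differed by 1.55 and 1.41 for the same 2 probe sets. The brightest Prm1 probe set changed by 0.19 ± 0.04 (adjusted p = 0.0204, limma), and all 3 are of a kind that can share probes with other transcripts.

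In all, 6 probe sets were called in the same direction with and without the transgene: 2 of Hdac4, 2 of Prm1, and those of Pam and Abi3bp. They were 4.96% of the 121 called here and 4.58% of the 131 called between Hdac4HET and WT (0.291% of those tested). A single probe set, of Ampd2, was called in opposite directions.

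Over all arrays, the Hdac4 effect differed with and without the transgene for a small group of genes. The difference of the 2 effects was called for 113 probe sets (0.251%), 10 of them also among the 121, and all 10 were lower in Dble::R6/2. This count was sensitive to the Hdac4HET arrays. It was 1 without the 7 bulb-marker arrays, which left 3 Hdac4HET arrays, and 3 without the 6 sex-mismatch arrays, which left 6. The mean over the bulb markers reached 8.70 in Hdac4HET and 7.23 in WT. An effect of the transgene and one of the tissue in these arrays cannot be told apart here. Lipa and Wdr53 below were chosen after their values were seen.

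Ampd2, an AMP deaminase of purine metabolism, ranged from 11.13 to 11.34 in R6/2 (median 11.24) and from 10.47 to 11.02 in Dble::R6/2 (median 10.79), without overlap. It fell by 0.45 in Dble::R6/2 (SE 0.08, adjusted p = 0.00249, limma) and rose by 0.39 in Hdac4HET (adjusted p = 0.00938). The difference of the effects was -0.85 ± 0.11 (adjusted p = 8.62e-05, limma), and -0.63 (adjusted p = 0.0554) and -0.73 (adjusted p = 0.00461) without the bulb-marker and sex-mismatch arrays. The WT arrays ranged from 10.67 to 11.10, which overlapped Dble::R6/2 and lay below every R6/2 array. The second Ampd2 probe set, of lower level, was at 105% of its R6/2 level in Dble::R6/2 and was not called. The called probe set is, like those of Prm1, of a kind that can share probes with other transcripts.

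Lipa encodes lysosomal acid lipase. Its second probe set ranged from 7.49 to 7.86 in R6/2 and from 7.10 to 7.50 in Dble::R6/2, so the groups overlapped narrowly. It fell by 0.42 (SE 0.07, adjusted p = 0.000672, limma) here and rose by 0.33 in Hdac4HET (adjusted p = 0.0108). The difference of -0.75 ± 0.09 (adjusted p = 5.93e-05, limma) was the one call that was left without the bulb-marker arrays (-0.78, adjusted p = 0.0102). R6/2 and WT differed by 0.73 for this probe set. The brightest Lipa probe set changed by only -0.06 ± 0.04 (adjusted p = 0.433, limma).

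Wdr53, a WD-repeat protein, ranged from 7.81 to 8.41 in R6/2 and from 7.36 to 7.81 in Dble::R6/2. It fell by 0.40 (SE 0.07, adjusted p = 0.00296, limma), with a difference of the effects of -0.61 (adjusted p = 0.00454). Dble::R6/2 (mean 7.69 ± 0.14 SD, n = 10) and WT (7.69 ± 0.13 SD, n = 9) had the same mean level. Gprin3, a growth-associated membrane protein, fell by 0.46 (adjusted p = 0.0407, limma) and had a difference of -0.79 (adjusted p = 0.0301). Without the bulb-marker arrays the adjusted p of the difference was 0.224 for Wdr53 and 0.386 for Gprin3, and without the sex-mismatch arrays 0.0726 and 0.107.

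**Figure D3:**
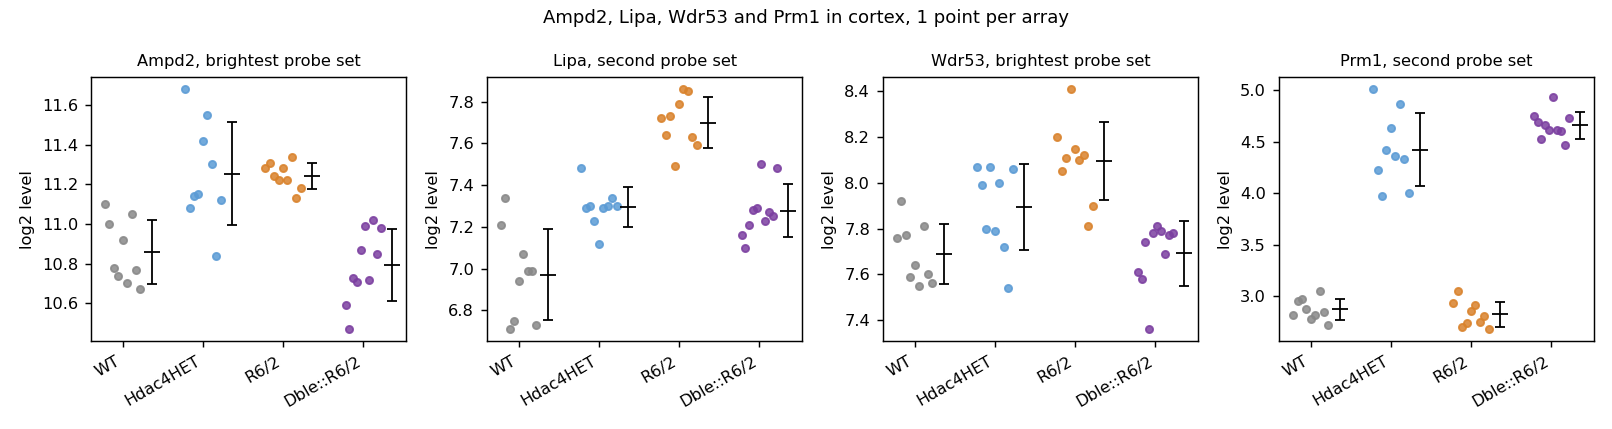
Log2 level of Ampd2, Lipa, Wdr53 and Prm1 (vertical axes) in each array of the 4 genotypes (horizontal axes), with the mean and SD as bars beside the points. Ampd2 is higher in Hdac4HET than in WT and lower in Dble::R6/2 (10.47 to 11.02) than in R6/2 (11.13 to 11.34), and Prm1 is at 3.05 or below in every WT and R6/2 array.

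Further genes, chosen after their values were seen except Kmt2a and Kmt2d, had smaller changes by their brightest probe sets, with an adjusted p under 0.05 for the difference of the effects over all arrays but for none of them without the bulb-marker arrays or without the sex-mismatch arrays. Zfp182, a zinc finger protein, fell by 0.33 (adjusted p = 0.0123) and Smc4, a condensin subunit, by 0.36 (adjusted p = 0.0176). Pabpn1, the nuclear poly(A)-binding protein, fell by 0.20 (adjusted p = 0.0144). The histone methyltransferases Kmt2a and Kmt2d fell by 0.20 and 0.14 (adjusted p = 0.0229 and 0.0356, which were 0.0599 and 0.059 without the bulb-marker arrays and 0.0786 and 0.0937 without the sex-mismatch arrays). They were the 2 that changed at any size among 54 chromatin regulators, when 0.429% of all genes were lower. At an unadjusted p under 0.05 in limma, 11 of the 54 were lower (20.4%) and 1 higher (1.85%), against 4.77% and 11.4% of all genes. The methods' t-test passed 1 (1.85%), against 0.577% of all genes. The median over the 54 was -0.043 against 0.022 for all genes. Raly, an RNA-binding protein of the hnRNP family, rose by 0.35 (adjusted p = 0.00133). All are limma values, and in the WT to R6/2 comparison, which shares the R6/2 arrays, these 6 genes differed by 0.62, 0.47, 0.34, 0.25, 0.45 and -0.49. Ppargc1a, a coactivator of mitochondrial genes that MEF2 is known to regulate, changed by -0.21 ± 0.07 (adjusted p = 0.0931, limma), with an adjusted p of 0.0272 for the difference of the effects.

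Abi3bp, an extracellular matrix protein on chromosome 16, was higher with reduced Hdac4 in both settings. It ranged from 5.05 to 6.17 in R6/2 (median 5.55), from 5.62 to 6.56 in Dble::R6/2 (median 6.25), from 6.75 to 7.72 in WT and from 7.45 to 8.53 in Hdac4HET. The R6/2 and Dble::R6/2 groups overlapped, and the change was 0.57 ± 0.14 (adjusted p = 0.0272, limma), beside 0.81 in Hdac4HET against WT and -1.62 in R6/2 against WT. Every Dble::R6/2 array remained below every WT array. The second Abi3bp probe set changed by 0.44 (adjusted p = 0.112, limma).

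Most changes by the brightest probe set were small. At any size 279 genes were higher (1.53%) and 78 lower (0.429%), with median changes of 0.15 and -0.21. The genes that were higher had a median span on the genome of 14.2 kb and those that were lower 51.1 kb, against 20.3 kb over all genes measured (RefSeq, GRCm38.p6). Among the higher genes were Baalc, a membrane-associated protein of brain and bone marrow (0.24 ± 0.04, adjusted p = 0.000672), Kctd13, an adaptor of a ubiquitin ligase (0.22 ± 0.03, adjusted p = 0.00081), and Txn2, mitochondrial thioredoxin (0.21 ± 0.03, adjusted p = 0.000706), all by limma and chosen after their values were seen. Baalc ranged from 10.17 to 10.45 in R6/2, from 10.42 to 10.60 in Dble::R6/2 and from 10.91 to 11.05 in WT, so its level in Dble::R6/2 was above most R6/2 arrays and below all WT arrays.

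Energy and protein turnover genes contributed a few of these rises. Of 41 respiratory chain genes 5 were higher at any size and none lower, against 1.53% and 0.429% of all genes. The median over the 41 was 0.042. At an unadjusted p under 0.05 in limma, 18 were higher (43.9%) and 0 lower, against 11.4% and 4.77% of all genes. The methods' t-test passed 2 (4.88%), against 0.577% of all genes. Uqcrc1, a core subunit of complex III, rose by 0.17 ± 0.04 (adjusted p = 0.0174, limma), and Ndufb9, of complex I, by 0.07 ± 0.02 (adjusted p = 0.0364, limma). Among 32 ubiquitin and proteasome genes 3 were higher and 1 lower at any size, beside the same shares of all genes. At an unadjusted p under 0.05 in limma, 9 of the 32 were higher and 5 lower, against 11.4% and 4.77% of all genes. None passed the methods' t-test. Sqstm1, the autophagy receptor p62 and chosen after its values were seen, rose by 0.15 ± 0.04 (adjusted p = 0.0382, limma), and Ube3a, a ubiquitin ligase of neurons, fell by 0.22 (adjusted p = 0.0299, limma). Gabarapl1, of the autophagosome membrane, rose by 0.09 (adjusted p = 0.0246), Cntfr, the receptor for ciliary neurotrophic factor, by 0.19 (adjusted p = 0.0194), Hip1r, a huntingtin-interacting protein relative, by 0.11 (adjusted p = 0.0471), and Mvk, an enzyme of cholesterol synthesis, by 0.15 (adjusted p = 0.0468), all by limma. Each was the only gene of its list to change at any size, among 25 autophagy, 12 neurotrophin, 20 huntingtin and 22 cholesterol genes measured, beside the same shares of all genes. At an unadjusted p under 0.05 in limma, 4, 1, 2 and 4 of them were higher and 2, 0, 1 and 1 lower, against 11.4% and 4.77% of all genes. The methods' t-test passed 0, 1, 1 and 0, against 0.577% of all genes.

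Genes of neuronal signalling were set beside all genes. In 8 lists of synaptic vesicle genes, glutamate and GABA receptors, ion channels, immediate early genes, neuropeptides, striatal signalling genes and cortical layer markers, 224 of 247 genes were measured. None was called, against 0.0879% of all genes. At any size 1 changed, Napa, a vesicle fusion adaptor (0.12 ± 0.03, adjusted p = 0.0168, limma), when 1.53% of all genes were higher and 0.429% lower. At an unadjusted p under 0.05, 22 were higher (9.82%) and 13 lower (5.8%), near the shares over all genes (11.4% and 4.77%). The median change was 0.012, and the methods' t-test passed 1 (0.446%), against 0.577% of all genes. Bdnf, the neurotrophin that cortex supplies to striatum, ranged from 8.68 to 9.19 in R6/2 and from 8.66 to 8.98 in Dble::R6/2 for its brightest probe set. Its change was -0.03 ± 0.09 (95% interval -0.20 to 0.15, adjusted p = 0.917, limma), and its other probe set changed by 0.05 (adjusted p = 0.867), beside -0.54 and -0.58 between R6/2 and WT.

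Cell type markers differed little between the groups. The mean level over 12 neuron markers was 11.72 in both, over 18 astrocyte markers 10.28 in R6/2 and 10.26 in Dble::R6/2, and over 18 microglia markers 8.56 and 8.55. Of 136 markers, 1 changed at any size, Rbfox3, the neuronal protein NeuN (0.11 ± 0.03, adjusted p = 0.0218, limma). Over all genes 1.53% were higher and 0.429% lower at any size. At an unadjusted p under 0.05 in limma, 8 markers were higher (5.88%) and 5 lower (3.68%), against 11.4% and 4.77% of all genes. Markers of choroid plexus, meninges and blood varied most, from 6.45 to 7.70 in R6/2 and from 6.42 to 7.66 in Dble::R6/2.

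The 111 lower calls came for the most part from the dimmer probe sets of long genes. Of them, 32 had no single gene symbol, and the other 79 belonged to 72 genes, with a median span of 87.5 kb, and in 60 of these genes the brightest probe set was not called. The median change of the brightest probe set in these 60 genes was -0.03 (from -0.35 to 0.08), while the median change of the 111 probe sets was -0.45. Between the brightest and the called probe set of a gene the median gap in mean level was 2.71. Probe sets of 1 gene can lie in different transcripts or in different parts of one, and the probe positions were not used here.

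Values of single genes show the pattern, with Lrp1b an exception. Lrp1b, a large receptor of the LDL receptor family, was called by 2 probe sets, its brightest (-0.42) and its second (-0.96). The second ranged from 5.19 to 6.75 in R6/2 and from 4.49 to 6.05 in Dble::R6/2. Zc3h15, a zinc finger protein, fell by 0.83 on a dim probe set (adjusted p = 0.0212, limma), and its brightest changed by -0.23 (adjusted p = 0.0808). Golm2, a Golgi membrane protein, had a dim probe set at -0.64 (adjusted p = 0.0169) and the brightest at -0.02 (adjusted p = 0.891). Peli1, a ubiquitin ligase of innate immunity, had 2 dim probe sets at -0.46 and -0.61, and the brightest at -0.02. Nedd4, a ubiquitin ligase, had probe sets at -0.51 and -0.02, and Secisbp2l, a selenocysteine insertion protein relative, at -0.53 and -0.19. Groups overlapped for each of these probe sets. They were among the genes the study picked for qPCR in view of these arrays, so they are not independent evidence of a direction, and the qPCR values were not used here.

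Wdfy3, an adaptor for selective autophagy of aggregates, was, like the second probe set of Lipa, lower on a dimmer probe set that was called under every alternative setting tried. Its second probe set ranged from 9.70 to 10.10 in R6/2 and from 8.74 to 9.71 in Dble::R6/2 (change -0.53 ± 0.10, adjusted p = 0.00527, limma), with the brightest at -0.10 (adjusted p = 0.158). Wdfy3 was named after its values were seen, as were Eif2s2, a translation initiation factor (-0.59 on a dim probe set and -0.05 on the brightest), and Cdh8, a neuronal cadherin (-0.35, adjusted p = 0.0104). Epha4, an axon guidance receptor, had 2 probe sets at -0.47 and the brightest at -0.10.

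Some genes were called by their brightest probe set. Zeb2, a transcriptional repressor, ranged from 9.75 to 10.80 in R6/2 and from 9.15 to 10.26 in Dble::R6/2 and fell by 0.52 (adjusted p = 0.0455, limma). Klf7, a transcription factor of the Kruppel family, fell by 0.43 (adjusted p = 0.0242), Prox1, a homeobox protein, by 0.49 (adjusted p = 0.0173), B3galt1, a galactosyltransferase, by 0.61 (adjusted p = 0.0353) and Slc7a11, the cystine transporter, by 0.38 (adjusted p = 0.0285). All overlapped between the groups.

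Malat1, a long noncoding RNA retained in nuclear speckles, was called on 3 of its 7 probe sets, the 3 brightest, with changes of -0.41, -0.48 and -0.50. The brightest ranged from 12.54 to 13.04 in R6/2 (median 12.64) and from 11.81 to 12.65 in Dble::R6/2 (median 12.34), so the groups overlapped (adjusted p = 0.0151, limma). The highest R6/2 value was that of replicate 9 and the lowest Dble::R6/2 value that of replicate 9, one of the sex-mismatch arrays. R6/2 and WT differed by -0.55 for this probe set. Kcnq1ot1, another nuclear noncoding RNA and chosen after its values were seen, changed by -0.33 ± 0.07 (adjusted p = 0.0124, limma).

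The lower probe sets were also averaged on each array. The mean over the 109 of them that are not of Hdac4 ranged from 6.88 to 7.28 in R6/2, from 6.18 to 6.83 in Dble::R6/2, from 6.63 to 7.34 in WT and from 6.81 to 7.22 in Hdac4HET. Since the probe sets were chosen on these arrays, the gap between R6/2 and Dble::R6/2 is no test. The lowest Dble::R6/2 means were those of replicates 9 (6.18), 4 (6.35), 10 (6.41) and 8 (6.46). Over the 70 brightest other probe sets of the same genes the means were 9.47 to 9.57 in R6/2 and 9.47 to 9.51 in Dble::R6/2. Leaving out R6/2 replicate 3 brought the 121 calls to 31, leaving out Dble::R6/2 replicate 9 brought them to 32, and leaving out Dble::R6/2 replicate 2 brought them to 218. RNA quality values were not used here, and their part in these lower levels was not tested.

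**Figure D4:**
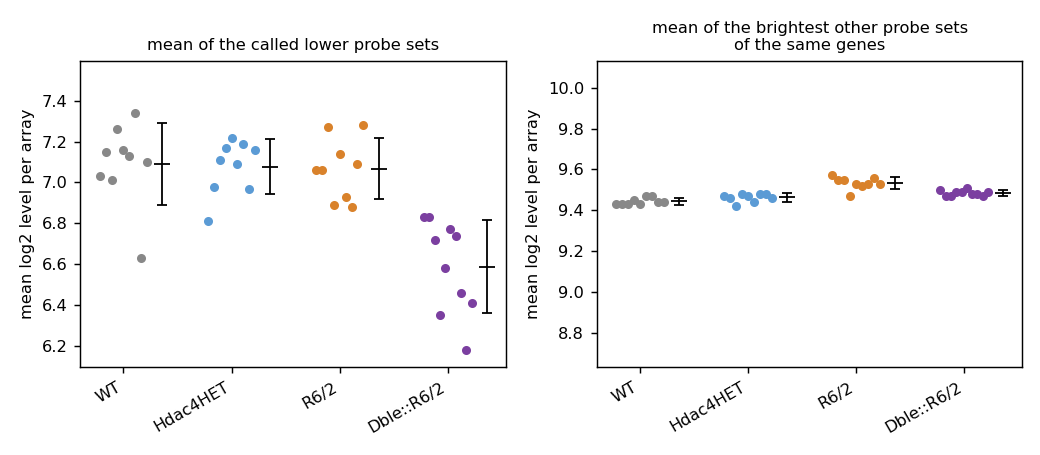
Mean log2 level per array (vertical axes, of equal length) over the 109 called lower probe sets that are not of Hdac4 (left) and over the 70 brightest other probe sets of the same genes (right), by genotype (horizontal axes), with the mean and SD as bars beside the points. The left means are 6.18 to 6.83 in Dble::R6/2 and 6.88 to 7.28 in R6/2, and the right means are 9.47 to 9.51 in Dble::R6/2 and 9.47 to 9.57 in R6/2.

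Several further calls rested on R6/2 arrays that differed among themselves, in separate clusters for H2-D1. H2-D1, a class I histocompatibility gene on chromosome 17, ranged from 6.26 to 7.06 on R6/2 replicates 1, 2, 3, 6 and 8 and from 9.56 to 10.50 on the other 4, against 9.64 to 10.85 in Dble::R6/2, for the probe set that was called (change 2.05 ± 0.56, adjusted p = 0.0457, limma). WT replicates 1, 6 and 7 and Hdac4HET replicate 4 were also at 7.24 or below. The brightest H2-D1 probe set changed by 0.91 (adjusted p = 0.0614). The same 5 R6/2 arrays were the lowest 5 for Enpp5, a phosphodiesterase gene on chromosome 17 (change 0.58, adjusted p = 0.0329), and the highest 5 for H2-Ob (-0.41, adjusted p = 0.0469) and for the called probe set of Mmut, methylmalonyl-CoA mutase and chosen after its values were seen (-0.89, adjusted p = 0.0479), both on chromosome 17, all by limma. Of the 5, 4 were also among the extreme 5 for Cd2ap, an adaptor of the actin cytoskeleton (-0.75 on a dim probe set, adjusted p = 0.013, and 0.07 on the brightest), and for Cyp39a1, an oxysterol hydroxylase (0.55, adjusted p = 0.0725). These genes start between 34.2 and 44.1 Mb of chromosome 17 in RefSeq (GRCm38.p6). The split at 5 arrays was taken from H2-D1. For Enpp5 the 5 arrays lay at 9.94 to 10.32 and the other 4 at 10.42 to 11.16, so they formed no separate cluster. H2-Ob (3.26 to 4.46 in R6/2) and the called Mmut probe set (2.84 to 4.81) were dim. Over all probe sets the median mean level was 6.19 and the fifth percentile 3.22. The brightest Mmut probe set changed by -0.28 (adjusted p = 0.122, limma) and was not called. None of the 10 Dble::R6/2 arrays was in the low cluster of H2-D1, and the part of this region's inheritance in the calls was not tested.

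Rian, a maternally expressed noncoding RNA of chromosome 12, ranged from 11.17 to 12.49 in R6/2 and from 12.36 to 12.55 in Dble::R6/2 (change 0.44 ± 0.12, adjusted p = 0.0459, limma). R6/2 replicates 1, 3, 5 and 7 were at 12.00 or below, and of these only replicates 1 and 3 were in the low cluster of H2-D1. Below every Dble::R6/2 array were 6 of 9 R6/2, 7 of 9 WT and 3 of 9 Hdac4HET arrays. The call of Rian was kept in 7 of 19 fits with 1 array left out. Gja1, the astrocyte gap junction gene and chosen after its values were seen, rose by 0.43 on a dim probe set (adjusted p = 0.0323, limma) and changed by 0.00 on its brightest.

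**Figure D5:**
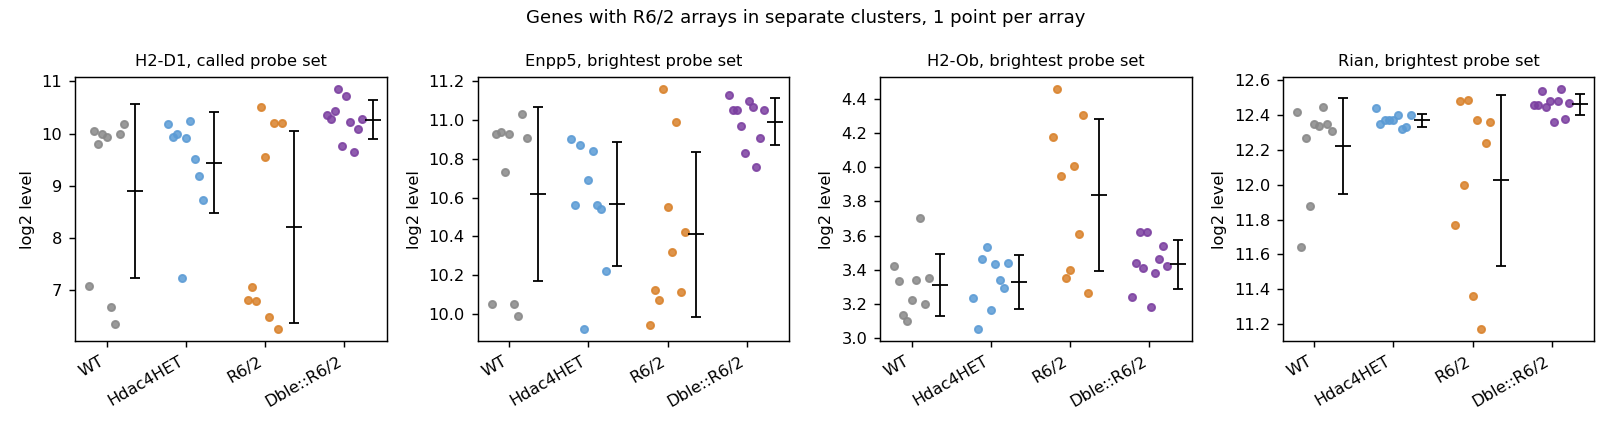
Log2 level of H2-D1, Enpp5, H2-Ob and Rian (vertical axes) in each array of the 4 genotypes (horizontal axes), with the mean and SD as bars beside the points. For H2-D1, 5 R6/2 arrays lie at 6.26 to 7.06 and the other 4 at 9.56 to 10.50, and the 10 Dble::R6/2 arrays form 1 cluster in each panel.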

How the data were processed

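Cortical RNA was hybridised to 37 Affymetrix mouse genome arrays. The deposited table holds log2 values for 45037 probe sets, already summarised by the authors. No source used here states how they were summarised and normalized. The authors excluded arrays by a quality threshold, and their methods count fewer arrays in 3 genotypes than were deposited. All deposited arrays were used here, since which of them were left out there is not stated. The values carry no detection calls, so dim probe sets were kept. The precision is limited by the number of arrays. No label ties an array to an animal, so p-values measure only the spread between these samples, which may be technical.

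The deposited log2 values were fitted with limma 3.58.1 in R 4.3.3 (lmFit and eBayes with a trend), 4 genotypes in 1 fit, with Benjamini-Hochberg adjustment over all probe sets. Gene names came from the platform annotation: 34945 probe sets had 1 symbol, 932 several and 9160 none. The genes named were Hdac4 and its class, the largest changes, called genes near Hdac4, up to 4 called or else the 2 lowest-p members of each of 29 gene lists, genes called by 2 probe sets, the genes assayed by qPCR in the study, and genes called in both Hdac4 comparisons. Others are said to be chosen after their values were seen. The members and lists were chosen with earlier results of these data known. The fit was tested on simulated data. Alternatives were other normalizations, filters, covariates, tests and left-out arrays.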

Additional observations from a re-analysis of the deposited data

Results flagged for a closer look

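The Hdac4 effect differed with and without the R6/2 transgene (limma interaction, adjusted p under 0.05) for 18 of the 92 probe sets named in the text, some of which were named because of these values. Without the bulb-marker arrays 1 of the 18 kept an adjusted p under 0.05 (the second probe set of Lipa, 0.0102), and without the sex-mismatch arrays 2 did (that of Lipa and Ampd2, both 0.00461). The differences, as the effect with R6/2 minus the effect without it, were -0.85 for Ampd2, -0.83 for a dim probe set of Eif2s2, -0.79 for Gprin3, -0.75 for the second probe set of Lipa, -0.63 for the second of Wdfy3, -0.61 for Wdr53, -0.57 for Smc4, -0.55 for Zfp182, -0.45 for Ppargc1a, -0.34 for Pabpn1, -0.27 for Kmt2a, -0.26 for the second probe set of Hdac4 and -0.23 for Kmt2d. They were 0.44 for Raly, 0.25 for Pam, 0.24 for Baalc, 0.24 for Sqstm1 and 0.21 for Kctd13.

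A single array lay far from the rest of its group in 11 of 184 groups looked at, where chance gives about 1 in 20. In R6/2, replicate 9 was high for the second and the dimmer next probe set of Malat1 (12.44 and 11.65, with the next at 12.10 and 11.28), replicate 3 for the second probe set of Wdfy3 (10.10), replicate 1 for Htt (9.12), replicate 8 for Rbfox3 (12.40) and replicate 4 for Mvk (7.85), and replicate 4 was low for Kmt2a (8.95) and replicate 6 for Slc7a11 (7.26). In Dble::R6/2, replicate 4 was low for Wdr53 (7.36), replicate 6 high for Zfp182 (6.72) and replicate 10 high for Sqstm1 (11.62).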

How the results depend on the processing

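The Hdac4 reduction was called under every alternative (-0.65 to -0.62 with 1 array left out). Of the other named probe sets, 37 were called and 7 kept the call under every alternative that tested them: the second of Hdac4, Pam, both dim ones of Prm1, Ampd2, the second of Lipa and the second of Wdfy3. Those of Prm1 and Ampd2 were not tested in the fit without probe sets of a kind that can share probes. Those of Prm1 were also not tested in the fit of probe sets above the median level. No named call changed direction. Of the 54 not called, 48 stayed so.

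The count of 121 called probe sets was 62 in a fit of those 2 genotypes alone, 15 with the methods' 2-tailed t-test, 27 without the bulb-marker arrays, 24 without the sex-mismatch arrays, 37 when lower was read as below 0.7-fold and 895 with no fold threshold. With the replicate block it was 20, all among the 121. Deviations of same-numbered R6/2 and Dble::R6/2 arrays correlated at -0.18 to 0.20. The labels do not say what a replicate number stands for, so these values cannot exclude a pairing. Leaving out 1 array gave 31 to 218 (lowest without R6/2 replicate 3, highest without Dble::R6/2 replicate 2), and also 32 without Dble::R6/2 replicate 9, 48 without 10, 51 without 4, 62 without 8 and 75 without 5, and 53 without R6/2 replicate 9, 61 without 5 and 76 without 2. It was 202 without R6/2 replicate 4, and 197 and 186 without Dble::R6/2 replicates 1 and 6.

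The 895 probe sets at any size became 1357 above the median level, 381, 196, 142 and 104 under the fit of 2 genotypes, the t-test, no bulb-marker arrays and no sex-mismatch arrays, 1419 with array quality weights and 113 with the replicate block. With 1 array left out they were 215 (R6/2 replicate 3) to 1590 (R6/2 replicate 4). The 113 probe sets of the difference of effects became 283 with array quality weights, 1 and 3 without the bulb-marker and sex-mismatch arrays, and 35 (Hdac4HET replicate 5) to 262 (WT replicate 7) with 1 array left out. The replicate block gave 78. The cause of these shifts was not tested.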
